A study of Mus musculus with 12 samples.

Results

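Transcript levels of 10 Hippo pathway genes, chosen by name, were followed in 12 mouse liver libraries: the kinases Lats1 and Lats2, the coactivators Yap1 and Wwtr1 (which encodes TAZ), the transcription factors Tead1 and Tead2, and 4 genes widely used as readouts of YAP and TAZ, Cyr61 (Ccn1), Ctgf (Ccn2), Ankrd1 and Amotl2. All 10 of 10 were found among the 21807 genes counted, and all 10 passed the filter on low counts at both stages. The choice used no measured value, although earlier results of these data were known.

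The libraries form 4 groups of 3. NICD1/Akt livers at 3 weeks (libraries 1, 2 and 3) and at 2 weeks (33, 34 and 35) came from C57BL/6J mice given plasmids for NICD1 (10 µg per mouse) and myr-AKT (10 µg per mouse) with the Sleeping Beauty transposase by hydrodynamic tail vein injection (HTVi), a rapid large-volume injection that carries DNA into part of the hepatocytes. NICD1 is the intracellular, ligand-independent part of the Notch1 receptor, and myr-AKT is an AKT held active at the membrane. The study's methods give male mice injected at 5 weeks of age; the labels name the tissue liver (CCA tumor), where CCA is cholangiocarcinoma, a bile duct cancer. Livers labelled WT served as controls at 3 weeks (10, 11 and 12) and at 2 weeks (30, 31 and 32), from C57BL/6J mice whose age is not given in the sources used here. They are described as healthy, although their labels too carry a time after HTVi, and whether they were injected is not stated. Each comparison therefore set labelled tumor tissue against liver labelled WT, and no group is labelled as given plasmids without the oncogenes. The groups at 3 weeks are called late and those at 2 weeks early. No source used here says whether libraries of a group stem from different mice, and p-values therefore cover the spread of the libraries, which may be technical.

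In the Hippo pathway, the MST kinases activate the LATS kinases, which phosphorylate YAP and TAZ and thereby keep them out of the nucleus or mark them for degradation. Unphosphorylated YAP and TAZ enter the nucleus and, lacking a DNA-binding domain, act through TEAD factors. In the liver the pathway is known for restraining organ size and for its part in hepatocyte and biliary identity. Much of this control acts on the proteins, which were not measured here.

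Levels are in CPM, reads of a gene scaled to library size with TMM factors over all 12 libraries, and log2 fold changes, standard errors (SE) and adjusted p-values are from edgeR's quasi-likelihood test, with an adjusted p under 0.05 as the threshold. Total counts were 13136892 to 19594839 per library. The library labelled control 32 went against its label in the genes whose sequences the plasmids carry. Notch1 stood at 106 CPM there, with 49.1 and 53.8 CPM in the other early controls, and Akt1 stood at 381 CPM, with 90.9 and 90.1 CPM in those controls. Y-linked Ddx3y had 57.2 CPM in library 32, but 0 counts in the other early controls and at most 0.398 CPM in early NICD1/Akt livers, against 52.2 to 61.2 CPM in late NICD1/Akt livers and 120.3 to 126 CPM in late controls. By this gene 5 of the 6 early libraries did not match the male mice of the study's methods, and library 32 did. Every value of 3 over 2 weeks, and every difference between the stages, thus also sets libraries with Ddx3y against libraries nearly all without it, and stage and Y-linked RNA cannot be told apart. Early fold changes are given with and without library 32.

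At 3 weeks the pathway's members moved in both directions. All 4 target genes, both TEAD genes and Wwtr1 rose in NICD1/Akt livers, while Yap1 and Lats1 fell and Lats2 did not pass the threshold. Scaling by library size alone ended the call of Yap1 and turned Lats1 round, and kept the 7 higher calls. Of the 13408 genes tested 38.9% were called higher and 33.1% lower, against 7 and 2 of the 10 members; the median log2 fold change was 1.72 over the members and 0.06 over all genes tested. In the same 7 members every NICD1/Akt library lay above every control, which held for 37.6% of all genes.

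**Figure D1:**
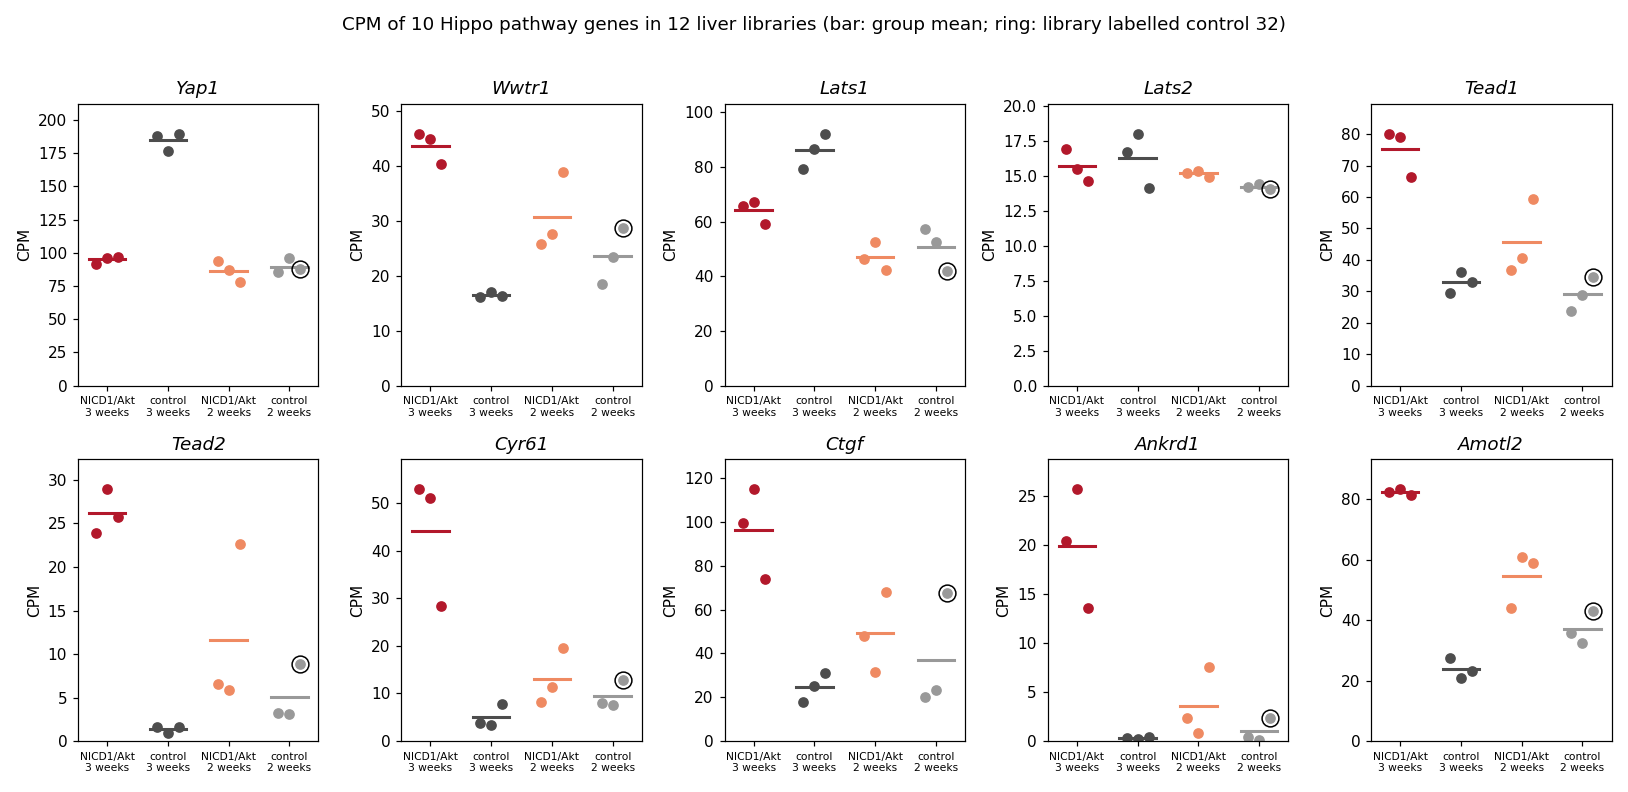
CPM (linear axes starting at 0) of the 10 genes in each of the 12 libraries. Points are libraries, bars are means of 3, and the ring marks the library labelled control 32. Yap1 lies at 176 to 189.6 CPM in controls at 3 weeks and at 78.0 to 96.9 CPM in the other 9 libraries, while late Amotl2 spans 81.5 to 83.3 CPM with NICD1/Akt and 20.8 to 27.4 CPM without.

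Among the 4 target genes the log2 fold changes at 3 weeks were 1.91 to 6.08. The promoters of 3 of them, and of the coactivator pair, are printed here because TEAD factors bind a core whose letters are GGAATG, or CATTCC on the opposite strand, and its matches are shown in capitals. Sequences are from RefSeq on GRCm38.p6 and cover the 250 bases before the start site, 5′ to 3′ on the gene's strand.
Ankrd1, chr19:36119845-36120094, minus strand: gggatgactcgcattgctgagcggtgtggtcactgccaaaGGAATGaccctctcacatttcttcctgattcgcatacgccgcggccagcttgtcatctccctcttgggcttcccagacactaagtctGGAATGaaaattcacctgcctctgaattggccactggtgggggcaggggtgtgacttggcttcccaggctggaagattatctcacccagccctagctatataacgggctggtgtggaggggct
Cyr61, chr3:145649986-145650235, minus strand: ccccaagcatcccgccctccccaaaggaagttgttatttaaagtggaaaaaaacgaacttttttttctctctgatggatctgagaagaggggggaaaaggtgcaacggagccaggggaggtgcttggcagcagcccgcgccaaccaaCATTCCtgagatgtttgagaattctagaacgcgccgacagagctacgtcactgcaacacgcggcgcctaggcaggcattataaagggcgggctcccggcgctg
Amotl2, chr9:102717554-102717803, plus strand: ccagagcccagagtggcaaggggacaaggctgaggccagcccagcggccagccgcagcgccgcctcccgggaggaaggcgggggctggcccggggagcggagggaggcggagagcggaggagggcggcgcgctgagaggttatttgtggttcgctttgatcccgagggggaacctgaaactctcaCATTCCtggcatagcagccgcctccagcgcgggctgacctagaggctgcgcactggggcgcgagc
Wwtr1, chr3:57575911-57576160, minus strand: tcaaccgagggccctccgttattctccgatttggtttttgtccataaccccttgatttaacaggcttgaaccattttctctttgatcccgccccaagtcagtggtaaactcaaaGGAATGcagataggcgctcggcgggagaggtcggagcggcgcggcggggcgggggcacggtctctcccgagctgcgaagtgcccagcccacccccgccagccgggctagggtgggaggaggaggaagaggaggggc
Yap1, chr9:8004597-8004846, minus strand: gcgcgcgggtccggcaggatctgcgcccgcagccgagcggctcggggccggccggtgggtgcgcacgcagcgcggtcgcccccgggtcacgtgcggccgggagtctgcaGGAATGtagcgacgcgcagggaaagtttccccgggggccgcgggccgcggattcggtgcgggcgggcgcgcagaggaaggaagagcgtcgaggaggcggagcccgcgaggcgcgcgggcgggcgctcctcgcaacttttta

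In windows of 300 bases, which add 50 bases after the start site, the core was searched on both strands for the 8 members with a promoter in the table. It was found in 6 of the 8 genes, against 14.7% of the 32851 promoters and 16.6% of the 27025 genes in the table. Ankrd1 held it at 210 and 123 bases before the start site, and 1.54% of genes held 2 or more matches in a window. Single matches lay 103 bases before the start site in Cyr61, 65 in Amotl2, 136 in Wwtr1 and 141 in Yap1, and 4 bases after it in Lats2. Wwtr1 and Lats2 each had another start site. The Wwtr1 match lay 170 bases before that site, and the other Lats2 window held no match. A gene was counted if any of its windows held the core. No match was found in the windows of Lats1 and Tead2. A match says only that these letters are present.

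Ankrd1 (ENSMUSG00000024803.10) encodes an ankyrin repeat protein known as a stress-responsive cofactor of muscle. It had 20.5, 25.7 and 13.6 CPM in late NICD1/Akt livers, against 0.345, 0.174 and 0.417 CPM in controls. The controls were near the limit of detection, with 4, 2 and 5 reads. The log2 fold change of 6.08 (SE 0.39, adjusted p = 3.79e-06) was the largest among the members. At 2 weeks it had 2.39, 0.814 and 7.51 CPM in NICD1/Akt livers, against 0.399, 0.144 and 2.39 CPM in controls. Library 35 held the highest of the early NICD1/Akt values and library 32 the highest control value, so that the groups overlapped (log2 fold change 1.91, SE 1.13, adjusted p = 0.52). Without library 32 the groups did not overlap and the log2 fold change was 3.72 (SE 1.17, adjusted p = 0.223).

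Cyr61 (ENSMUSG00000028195.5) and Ctgf (ENSMUSG00000019997.12) encode related secreted matricellular proteins of the CCN family. Cyr61 had 52.96, 51.1 and 28.4 CPM in late NICD1/Akt livers, against 3.88, 3.31 and 7.75 CPM in controls (log2 fold change 3.26, SE 0.35, adjusted p = 6.26e-05). Library 3 was the lowest of the late NICD1/Akt livers for Ankrd1, Cyr61 and Ctgf and still lay above every control. Ctgf had 99.6, 115 and 73.7 CPM, against 17.6, 25.2 and 31.01 CPM in controls (log2 fold change 2.09, SE 0.23, adjusted p = 7.18e-05). At 2 weeks Cyr61 had 8.23, 11.3 and 19.6 CPM in NICD1/Akt livers, against 7.99, 7.50 and 12.9 CPM in controls. Ctgf had 48.0, 31.5 and 68.2 CPM, against 20.1, 23.3 and 67.4 CPM in controls. Both overlapped between the early groups through library 32, and neither passed the threshold (log2 fold changes 0.48, SE 0.38, and 0.43, SE 0.52). Without it, Cyr61 was at 0.77 (SE 0.40, adjusted p = 0.353) and Ctgf at 1.20 (SE 0.35, adjusted p = 0.208).

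Amotl2 (ENSMUSG00000032531.16) encodes an angiomotin that binds YAP and TAZ and promotes LATS activity, a feedback inhibitor among the targets. It had 82.2, 83.3 and 81.5 CPM in late NICD1/Akt livers, against 27.4, 20.8 and 23.0 CPM in controls (log2 fold change 1.91, SE 0.11, adjusted p = 2.49e-06). Its NICD1/Akt values had an SD of 0.894 CPM (n = 3), against 20.8 CPM for Ctgf. At 2 weeks it had 43.9, 60.9 and 58.7 CPM in NICD1/Akt livers, against 35.8, 32.3 and 42.9 CPM in controls. These early groups did not overlap, although the call was not made (log2 fold change 0.57, SE 0.18, unadjusted p = 0.0163 and adjusted p = 0.52 from edgeR).

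The coactivators went opposite ways at 3 weeks. Yap1 (ENSMUSG00000053110.14) had 91.8, 96.4 and 96.9 CPM in NICD1/Akt livers, against 188, 176 and 189.6 CPM in controls (log2 fold change -0.84, SE 0.09, adjusted p = 6.45e-05). Its level at 2 weeks was 93.6, 87.2 and 78.0 CPM in NICD1/Akt livers, against 85.3, 95.8 and 87.8 CPM in controls (log2 fold change -0.05, SE 0.12, adjusted p = 0.861). Thus, with TMM factors, 3 of the 4 groups lay together and the late controls stood apart. Means were 95.0 ± 2.81, 86.3 ± 7.84 and 89.6 ± 5.44 CPM in late NICD1/Akt livers, early NICD1/Akt livers and early controls. Late controls averaged 185 ± 7.21 CPM (SD, n = 3 for each group). Scaled by library size alone, the late groups overlapped, at 124, 143 and 132 CPM with NICD1/Akt and 148, 138 and 151 CPM in controls. Early libraries then ran from 73.0 to 102 CPM. Late over early NICD1/Akt livers gained a call with that scaling (log2 fold change 0.59, SE 0.12, adjusted p = 0.00715 from edgeR). The late call of Yap1 was lost against all 6 controls (log2 fold change -0.53, SE 0.31, adjusted p = 0.181) and with library size alone (-0.13, SE 0.10, adjusted p = 0.26).

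Wwtr1 (ENSMUSG00000027803.15) had 45.8, 44.8 and 40.3 CPM in late NICD1/Akt livers, against 16.0, 17.1 and 16.3 CPM in controls (log2 fold change 1.52, SE 0.09, adjusted p = 2.94e-06). It had 25.8, 27.5 and 38.9 CPM in early NICD1/Akt livers, against 18.6, 23.4 and 28.7 CPM in controls (log2 fold change 0.40, SE 0.23, adjusted p = 0.52). The group means of Wwtr1 ran in the order 43.6, 30.7, 23.6 and 16.5 CPM in late NICD1/Akt livers, early NICD1/Akt livers, early controls and late controls, and the early groups overlapped through library 32. Without it they did not overlap, and the log2 fold change was 0.56 (SE 0.25, adjusted p = 0.295).

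The TEAD factors bring YAP and TAZ to DNA. Tead2 (ENSMUSG00000030796.18), which is known for expression in the early mouse embryo, had 23.9, 28.9 and 25.8 CPM in late NICD1/Akt livers, against 1.64, 0.871 and 1.67 CPM in controls (log2 fold change 4.34, SE 0.21, adjusted p = 9.11e-07). Tead1 (ENSMUSG00000055320.19), a broadly expressed member, had 80.1, 79.2 and 66.4 CPM, against 29.4, 36.3 and 33.1 CPM in controls (log2 fold change 1.31, SE 0.12, adjusted p = 2.25e-05). At 2 weeks Tead2 had 6.51, 5.84 and 22.6 CPM in NICD1/Akt livers, against 3.19, 3.10 and 8.81 CPM in controls. Libraries 35 and 32 were again the highest of their groups, and the groups overlapped through library 32 (log2 fold change 1.24, SE 0.68, adjusted p = 0.52). Without it they did not overlap, and the log2 fold change of Tead2 was 1.92 (SE 0.70, adjusted p = 0.25). Early Tead1 had 36.7, 40.5 and 59.4 CPM in NICD1/Akt livers, against 23.8, 28.8 and 34.6 CPM in controls, with no overlap (log2 fold change 0.66, SE 0.23, unadjusted p = 0.0267 and adjusted p = 0.52 from edgeR).

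The LATS kinases had the smallest fold changes at 3 weeks. Lats1 (ENSMUSG00000040021.15) had 65.8, 67.3 and 59.2 CPM in late NICD1/Akt livers, against 79.3, 86.7 and 92.1 CPM in controls (log2 fold change -0.31, SE 0.10, adjusted p = 0.0204). Its direction depended on the scaling: with library size alone the log2 fold change was 0.40 (SE 0.11, adjusted p = 0.00983), a scaling that moved the median of all genes at 3 weeks to 0.77. The call was also lost against all 6 controls (-0.09, SE 0.24, adjusted p = 0.778), without NICD1/Akt library 3 (-0.26, adjusted p = 0.0682) and without control library 12 (-0.26, adjusted p = 0.0724). Lats2 (ENSMUSG00000021959.17), itself described as a YAP target, had 16.9, 15.5 and 14.7 CPM in NICD1/Akt livers, against 16.7, 18.02 and 14.2 CPM in controls (log2 fold change 0.06, SE 0.12, adjusted p = 0.658), and with library size alone 0.77 (SE 0.13, adjusted p = 0.00054), near that scaling's median over all genes. At 2 weeks Lats1 had 46.3, 52.5 and 42.4 CPM in NICD1/Akt livers, against 57.1, 52.6 and 41.9 CPM in controls. Lats2 had 15.2, 15.4 and 14.95 CPM in early NICD1/Akt livers, against 14.2, 14.4 and 14.1 CPM in controls. The early Lats2 groups did not overlap but were set apart by less than 2 CPM, and neither kinase passed the threshold (adjusted p = 0.771 for Lats1 and 0.684 for Lats2).

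At 2 weeks, then, none of the 10 members was called, nor was any of the 13041 genes tested (0%; 1120 had an unadjusted p under 0.05). At an unadjusted p under 0.05, 2 members were higher, Tead1 and Amotl2, against 4.90% of all genes; by edgeR's likelihood ratio test 12 genes were called and by DESeq2 22, none of them a member. The NICD1/Akt libraries lay above all controls for 3 members (Lats2, Tead1 and Amotl2), against 7.38% of all genes. Without library 32, 5 members (Tead1, Tead2, Ctgf, Ankrd1 and Amotl2) were higher at an unadjusted p under 0.05, against 12.3% of genes, and 8 had no overlap with NICD1/Akt above control, against 23.4% of genes. The log2 fold changes without library 32 not given above were 0.81 for Tead1, 0.69 for Amotl2, 0.09 for Lats2, -0.07 for Yap1 and -0.22 for Lats1, and no member was called. Leaving out NICD1/Akt library 35 instead lowered the early values. They were then 0.72 for Ankrd1, 0.29 for Tead2, 0.04 for Cyr61, 0.10 for Ctgf and 0.17 for Wwtr1. Tead1 was at 0.40 and Amotl2 at 0.49. The median over the members was 0.14, against 0.45 with all libraries and 0.73 without library 32.

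**Figure D2:**
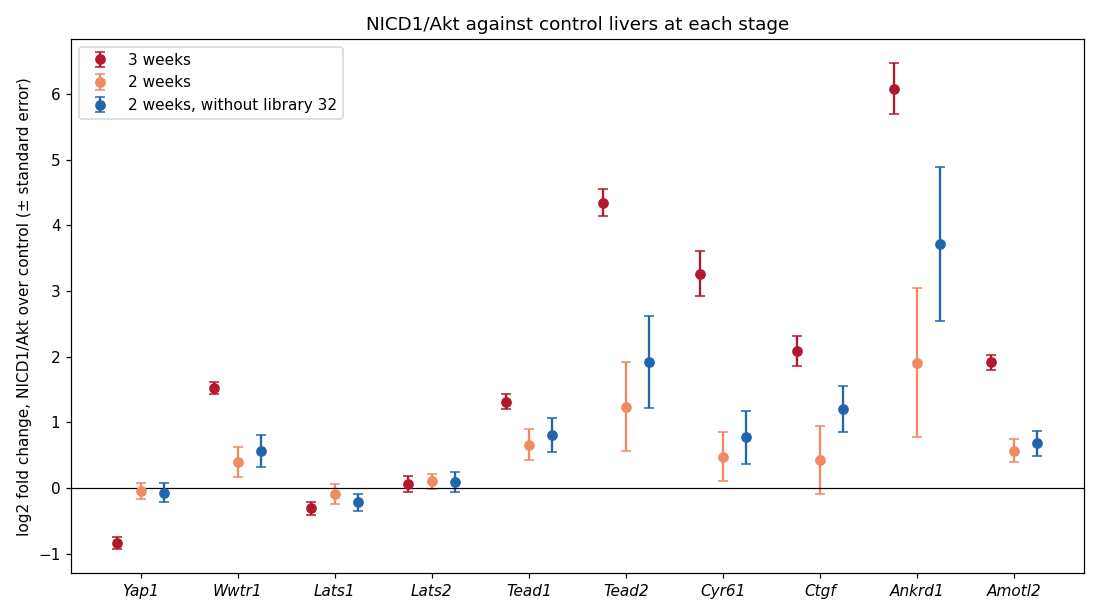
Log2 fold change of NICD1/Akt over control livers (vertical axis, ± SE) for the 10 genes at 3 weeks, at 2 weeks and at 2 weeks without the library labelled control 32. At 3 weeks the values run from -0.84 for Yap1 to 6.08 for Ankrd1; leaving out library 32 moves Ankrd1 at 2 weeks to 3.72, against 1.91 with it.

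Per kilobase of exon, which allows levels to be compared between genes, the order of the members differed between the late groups. In NICD1/Akt livers at 3 weeks Ctgf was the highest at 33.6 ± 7.27 CPM per kb (SD, n = 3), followed by Cyr61 at 21.9 ± 6.77, Amotl2 at 13.1 ± 0.142, Yap1 at 10.3 ± 0.303, Wwtr1 at 9.13 ± 0.622, Lats1 at 8.78 ± 0.593, Ankrd1 at 6.90 ± 2.10, Tead1 at 5.55 ± 0.564, Tead2 at 5.48 ± 0.528 and Lats2 at 2.25 ± 0.162. Wwtr1 and Lats1, Lats1 and Ankrd1, Ankrd1 and Tead1, and Tead1 and Tead2 were closer to each other than the larger SD of the pair. In controls at 3 weeks Yap1 led at 19.9 ± 0.779 CPM per kb and Lats1 followed at 11.8 ± 0.884, with Ctgf at 8.59 ± 2.35, Amotl2 at 3.78 ± 0.536, Wwtr1 at 3.45 ± 0.1097, Cyr61 at 2.47 ± 1.20, Tead1 at 2.43 ± 0.254, Lats2 at 2.34 ± 0.281, Tead2 at 0.291 ± 0.0944 and Ankrd1 last at 0.108 ± 0.0432. Here each neighbouring pair between Amotl2 and Lats2 was closer than its larger SD.

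Ratios of paralogs within a library do not depend on the scaling. Reads of Wwtr1 over Yap1 had log2 ratios of -1.001, -1.10 and -1.27 in NICD1/Akt livers at 3 weeks, against -3.55, -3.37 and -3.53 in controls, a difference of 2.36 and a 5.13-fold change of the ratio. Tead2 over Tead1 had log2 ratios of -1.74, -1.45 and -1.37, against -4.13, -5.31 and -4.28 in controls, a difference of 3.05. Lats2 over Lats1 had -1.96, -2.12 and -2.01, against -2.24, -2.26 and -2.70 in controls, a difference of 0.37. All 3 ratios were higher in every late NICD1/Akt library than in any late control, with the smallest p that 3 against 3 libraries allow in a two-sided exact permutation test (p = 0.1, and 0.2 adjusted over the 6 ratios tested). At 2 weeks the differences were 0.44 for Wwtr1 over Yap1, 0.46 for Tead2 over Tead1 and 0.19 for Lats2 over Lats1, with groups that overlapped through library 32 alone (exact permutation p = 0.3, 0.5 and 0.3). The lowest early NICD1/Akt log2 ratio was -1.86 for Wwtr1 over Yap1, against -2.20 and -2.03 in controls 30 and 31. It was -2.79 for Tead2 over Tead1, against -2.88 and -3.20 in these controls, and -1.77 for Lats2 over Lats1, against -2.01 and -1.86. Without library 32 the differences were 0.61 for Wwtr1 over Yap1, 0.82 for Tead2 over Tead1 and 0.31 for Lats2 over Lats1 (exact permutation p adjusted over the 6 ratios = 0.2 each). Without NICD1/Akt library 35 that of Tead2 over Tead1 was 0.0465.

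**Figure D3:**
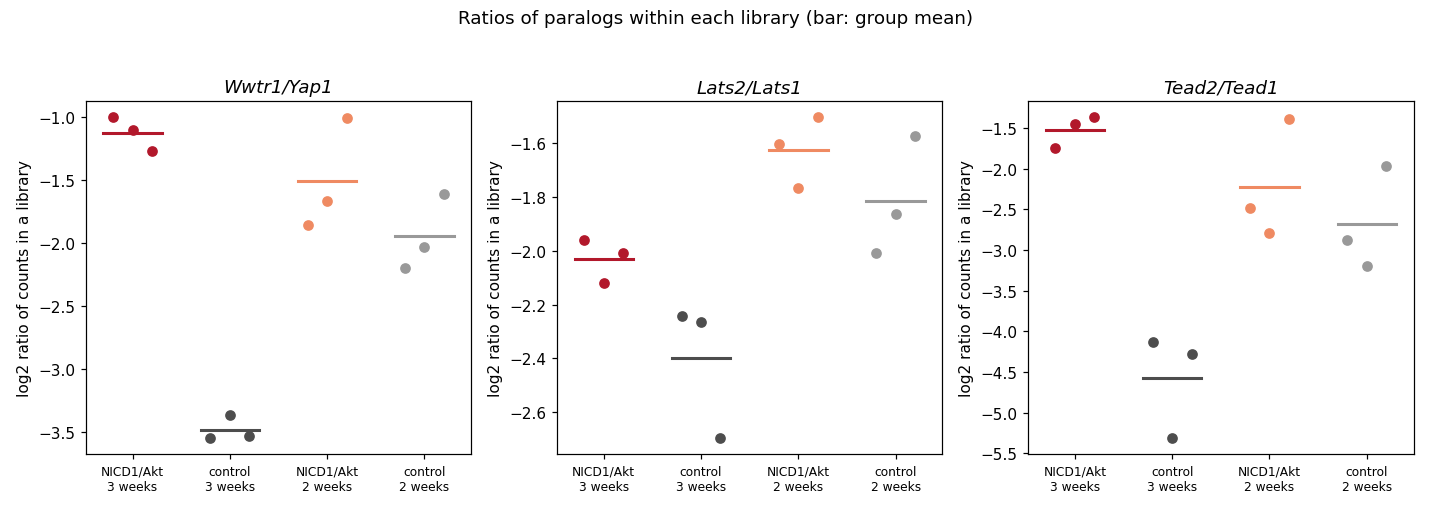
Log2 ratio of read counts (vertical axis) of Wwtr1 to Yap1, Lats2 to Lats1 and Tead2 to Tead1 in each library, bars being group means. Late NICD1/Akt livers average -1.12 for Wwtr1 to Yap1 and late controls -3.48.

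The comparison of later with earlier libraries within each condition placed these differences. In NICD1/Akt livers, 3 over 2 weeks, 5 members rose and none fell, against 11.1% of genes higher and 17.4% lower: Lats1 (log2 fold change 0.45, SE 0.13), Tead1 (0.72, SE 0.19), Cyr61 (1.75, SE 0.39), Ankrd1 (2.43, SE 0.76) and Amotl2 (0.59, SE 0.15). In controls, 3 over 2 weeks, 2 members rose, against 17.4% of genes, and 3 fell, against 20.4%. Yap1 (log2 fold change 1.04, SE 0.10, adjusted p = 3.87e-05 from edgeR) and Lats1 (0.77, SE 0.13, adjusted p = 0.00112) were higher in late controls; Wwtr1 (-0.52, SE 0.18, adjusted p = 0.044), Tead2 (-1.84, SE 0.63, adjusted p = 0.0391) and Amotl2 (-0.64, SE 0.15, adjusted p = 0.00788) were lower. Without library 32 the calls of Wwtr1 (-0.37, adjusted p = 0.156) and Tead2 (-1.19, adjusted p = 0.173) were lost and the fold changes of Ctgf and Ankrd1 turned from negative to 0.16 each, while Yap1, Lats1 and Amotl2 stayed called. The calls of Wwtr1 and Tead2 were also lost when any 1 of the late controls was left out, and that of Wwtr1 without library 31. Library size alone ended both calls too (-0.71, adjusted p = 0.0862 for Wwtr1 and -2.06, adjusted p = 0.0556 for Tead2). In NICD1/Akt livers the call of Cyr61 held without each library in turn. That of Amotl2 was lost without library 33, that of Lats1 without 33, 1 or 2, that of Tead1 without 33, 34, 1 or 2, and that of Ankrd1 without 33, 34, 1, 2 or 3.

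**Figure D4:**
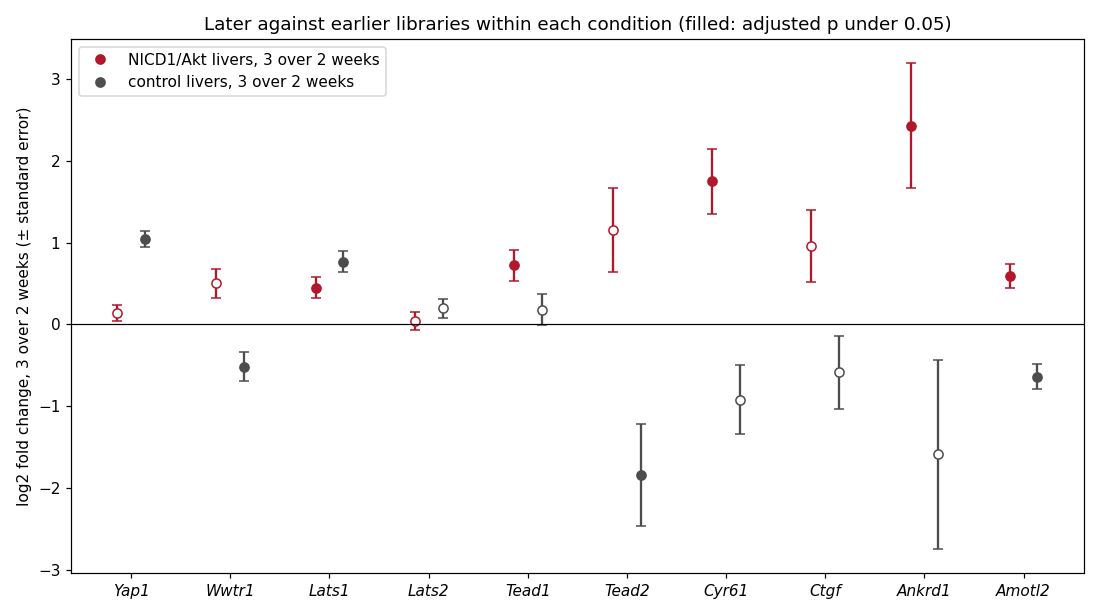
Log2 fold change of 3 over 2 weeks (vertical axis, ± SE) in NICD1/Akt livers and in controls, filled where the adjusted p was under 0.05. Yap1 lies at 0.14 in NICD1/Akt livers and at 1.04 in controls, and Cyr61 at 1.75 and -0.92.

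The effect of NICD1/Akt differed between the stages for 6 members. In the 12-library fit the effect at 3 weeks exceeded that at 2 weeks for 5 members, against 15.0% of genes, and was below it for 1, against 15.8%. The differences were 4.02 for Ankrd1 (SE 1.36, adjusted p = 0.0459), 2.99 for Tead2 (SE 0.81, adjusted p = 0.0219), 2.67 for Cyr61 (SE 0.58, adjusted p = 0.0101), 1.23 for Amotl2 (SE 0.21, adjusted p = 0.00418), 1.02 for Wwtr1 (SE 0.25, adjusted p = 0.0158) and -0.90 for Yap1 (SE 0.14, adjusted p = 0.00237). Without library 32 the differences of Tead2 (2.32, adjusted p = 0.0535) and Ankrd1 (2.24, adjusted p = 0.293) no longer passed, and the others were 2.39 for Cyr61, 1.13 for Amotl2, 0.86 for Wwtr1 and -0.87 for Yap1, all called. The difference of Ankrd1 was lost without 9 of the 12 libraries, 1 at a time, and that of Tead2 also without control library 11. That of Yap1 was lost with library size alone (-0.28, SE 0.17, adjusted p = 0.223).

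Of 21 genes that act upstream of the LATS kinases, 12 rose and 1 fell at 3 weeks (median log2 fold change 0.44), against 38.9% of all genes higher, 33.1% lower and a median of 0.06, the background of each list that follows. The LIM protein Ajuba, known to hold back LATS kinases, had 38.2, 41.3 and 34.7 CPM in NICD1/Akt livers, against 2.24, 2.18 and 2.17 CPM in controls (log2 fold change 4.23, SE 0.13, adjusted p = 2.09e-07), and the related Wtip was higher too (2.21, SE 0.19). Map4k4, a kinase that can phosphorylate LATS alongside the MST kinases, had 126, 150.4 and 123 CPM, against 16.0, 17.5 and 18.3 CPM in controls (3.07, SE 0.12), and Dlg5, a scaffold, was also higher (2.15, SE 0.13). Wwc1, which encodes the scaffold KIBRA, fell, with 84.0, 90.4 and 80.1 CPM against 146, 131 and 134 CPM in controls (-0.57, SE 0.10). Genes that promote and genes that restrain LATS activity were thus among those that rose. The MST kinase gene Stk4 was at 0.36 (SE 0.09, adjusted p = 0.00707) and Stk3 at 0.30 (SE 0.13, adjusted p = 0.0657).

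Of 12 further genes whose proteins bind YAP, TAZ or TEAD factors, 10 were tested at 3 weeks, 5 rose and none fell (median 0.62; 38.9% and 33.1% over all genes); Vgll1 and Vgll2 had 0 counts in all libraries. Ptpn14, a phosphatase that binds YAP, had 57.96, 62.5 and 51.8 CPM in NICD1/Akt livers, against 4.31, 4.53 and 5.17 CPM in controls (log2 fold change 3.74, SE 0.12, adjusted p = 2.13e-07). The TEAD cofactor Vgll3 was low throughout, averaging 4.38 ± 0.776 CPM in late NICD1/Akt livers and 0.258 ± 0.153 CPM in late controls (SD, n = 3 each), a log2 fold change of 4.18 (SE 0.37). Trp53bp2 (1.09, SE 0.12) and Amotl1 (0.88, SE 0.11) were higher. In STRIPAK, a phosphatase complex that acts on the MST kinases, 4 of 10 genes rose and 4 fell (median 0.07), shares near those over all genes, among them Sike1 (1.16, SE 0.13) and Strn3 (-0.65, SE 0.10).

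A human signature of YAP and TAZ targets gave 16 further mouse genes, none of them a member or on the lists above. At 3 weeks 11 rose and 3 fell (median 1.30; 38.9% and 33.1% over all genes), and none of the 15 tested at 2 weeks was called. Tgfb2, a secreted growth factor, had 129.7, 131 and 105 CPM in NICD1/Akt livers, against 0.604, 0.261 and 0.667 CPM in controls (log2 fold change 7.99, SE 0.22, adjusted p = 1.85e-07). Myof, a membrane repair protein, averaged 52.5 ± 5.93 CPM in late NICD1/Akt livers and 3.77 ± 1.25 CPM in late controls (SD, n = 3 each), a log2 fold change of 3.91 (SE 0.20), and Arhgef17 (2.29, SE 0.12) and Ccdc80 (1.99, SE 0.14) were higher. Gadd45a, a stress-induced gene, fell (-2.50, SE 0.36), as did Asap1 (-1.35, SE 0.32) and Dock5 (-0.26, SE 0.09). Against all 6 controls 7 genes of the signature were higher and none lower, and no upstream or STRIPAK gene was lower. In that fit 3326 of the 13600 genes tested were higher and 3498 lower. With library size alone 19 of the 21 upstream genes, all 10 tested binding genes and 9 of the 10 STRIPAK genes were called higher. No upstream or STRIPAK gene was called lower, and 1 gene of the signature was. That scaling called 9076 of the 13408 genes tested higher and 1287 lower, and moved the median of all genes to 0.77.

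**Figure D5:**
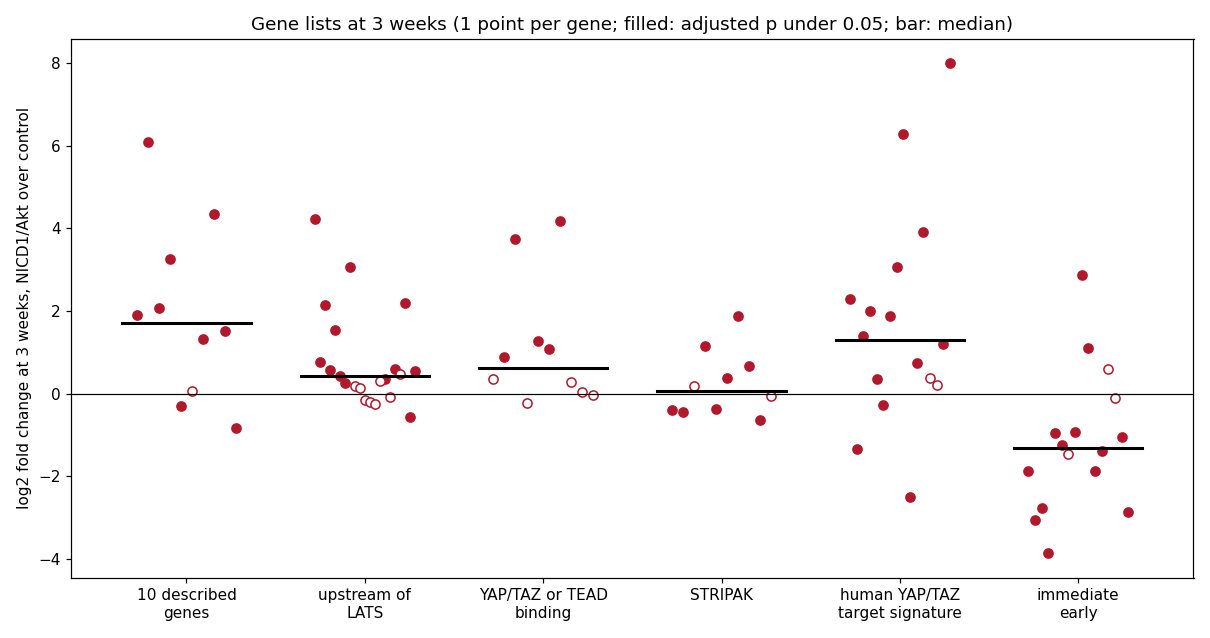
Log2 fold change at 3 weeks (vertical axis, NICD1/Akt over control) of each tested gene in the 10 members and 5 gene lists, filled where the adjusted p was under 0.05, with the median as a bar. The medians are 1.72 for the members, 0.44 upstream of LATS, 0.62 for binding genes, 0.07 for STRIPAK, 1.30 for the human signature and -1.32 for immediate early genes.

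Markers of cell types moved with these results. At 3 weeks the summed level of 10 biliary markers was 3510 to 4131 CPM in NICD1/Akt livers, against 93.7 to 136 CPM in controls, and all 8 markers tested rose. The sum of 10 stellate cell and fibroblast markers was 2586 to 3494 CPM, against 303 to 406 CPM in controls, with 7 of 10 higher. None of these 10 was called lower, although 2 lay below every control in all NICD1/Akt libraries. That of 10 hepatocyte markers was 28075 to 40516 CPM, against 116851 to 122706 CPM in controls, with 10 of 10 lower. Of 10 endothelial markers 1 rose and 4 fell, and of 10 macrophage markers 7 rose and 3 fell. Over all genes 38.9% were higher and 33.1% lower. No defining marker was at 0 counts throughout the late NICD1/Akt livers, and 1 biliary marker was at 0 in late controls and 1 in early NICD1/Akt livers. At 2 weeks the biliary sum was 1187, 1377 and 4742 CPM in NICD1/Akt libraries 33, 34 and 35, against 90.0, 90.8 and 2049 CPM in control libraries 30, 31 and 32, and the stellate sum 1369, 1092 and 3546 CPM, against 634, 621 and 1732 CPM. Libraries 35 and 32 were thus the highest of their groups both in these sums and in Wwtr1, Tead1, Tead2, Cyr61, Ctgf and Ankrd1. The early hepatocyte sum was lowest in these libraries, at 64977 CPM in 35 and 100385 CPM in 32, against 146698 to 175601 CPM elsewhere. The part of cell composition in the members' values was not tested, and in bulk liver fewer cells of a type and less RNA per cell cannot be told apart.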

How the data were processed

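Poly(A) RNA was sequenced in 12 mouse liver libraries of 4 groups, with groups taken from the sample labels. Per gene, unnormalized read counts were deposited by the authors in 1 table a stage. For alignment and counting the study's methods give STAR, mm10 and HTSeq, whereas GRCm39, STAR 2.7 and Subread 2.0.6 appear in the processing notes of the submitters. The pipeline behind the counts was not settled, so no coordinates were taken for the counted genes (those of the printed promoters are RefSeq's on GRCm38.p6), and use of strand in counting is not given in the sources used here. Of 21807 gene IDs 21573 matched GENCODE M21 names. The members and lists were chosen with earlier results of these data known.

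Counts were analysed in R 4.3.3 with edgeR 4.0.16 (TMM, filterByExpr, quasi-likelihood test, Benjamini-Hochberg over all genes tested), on 6 libraries for each stage and on 12 for comparisons across stages. CPM per kb used union exon lengths from M21. Ratios of paralogs used counts plus 0.5. Lists were upstream genes, binding genes, STRIPAK, a human target signature, immediate early genes and 5 sets of cell type markers; up to 4 genes in each direction with the smallest adjusted p at 3 weeks and a mean of at least 1 CPM were named (Stk3, Stk4, Vgll1 and Vgll2 were named after their values were seen), with Notch1, Akt1 and Ddx3y as library checks and the 3 genes most alike Yap1 and Cyr61. Alternatives were DESeq2 1.42.0, the likelihood ratio test, RLE factors, library size alone, no filter, all 12 libraries, all 6 controls and leaving out each library; DESeq2 for the later against earlier comparisons was added after seeing the data. The tests were also run on simulated counts in which most genes were left unchanged. Such counts do not cover the dependence on scaling seen at 3 weeks. Chi-square per gene between libraries of a group was 4.96 to 136, so none was taken as a repeat deposit.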

Additional observations from a re-analysis of the deposited data

Results flagged for a closer look

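The effect of NICD1/Akt differed between 3 and 2 weeks, by the edgeR test of the difference over 12 libraries, for Yap1 (log2 difference -0.90), Wwtr1 (1.02), Tead2 (2.99), Cyr61 (2.67), Ankrd1 (4.02) and Amotl2 (1.23). For Yap1 with TMM factors the late controls stood apart from the other groups, at 185 ± 7.21 CPM against 89.6 ± 5.44 CPM in early controls (SD, n = 3 each). With library size alone the late groups overlapped. The difference of Yap1 between the stages was then -0.28 (SE 0.17, adjusted p = 0.223 from edgeR) and did not pass. For Tead2 and Ankrd1 the difference did not pass without the library labelled control 32. Groups of 3 are too small for a test of single outlying libraries.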

How the results depend on the processing

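Over the 10 members and all comparisons, 525 fold changes under an alternative kept their direction and side of the threshold, 41 lost a call, 12 gained one and 12 changed sign. The 7 members higher at 3 weeks stayed called under every alternative run. With library size alone, which moved the all-gene median to 0.77 at 3 weeks, 0.21 at 2 weeks, 0.59 for the difference between stages, -0.28 for late over early controls and 0.43 for late over early NICD1/Akt livers, no member was lower at 3 weeks (0) or in the difference between stages (0), and 1 was lower in late over early controls. It called 9076 genes higher and 1287 lower at 3 weeks, against 5218 and 4432 with TMM, so that 87.6% of calls were higher, against 54.1%; the shares were 92.2% against 48.8% for the difference between stages, 29.6% against 46.1% for controls and 78.5% against 38.9% for NICD1/Akt livers, late over early. Its sign changes were Lats1 at 3 weeks (0.40), at 2 weeks (0.11) and in the difference (0.30), Lats2 in the difference (0.46), Yap1 at 2 weeks (0.15) and Tead1 in late over early controls (-0.00765). Against all 6 controls 0 members were lower at 3 weeks, and with all 12 libraries in 1 fit Lats2 at 3 weeks was at -0.0561.

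Leaving out 1 library at a time gave 1 to 2 members lower at 3 weeks, 3 to 7 higher in the difference between stages, 1 to 3 lower in late over early controls and 1 to 7 higher in late over early NICD1/Akt livers. The log2 fold change then ran over -0.0348 to 0.13 for Lats2 at 3 weeks, -0.11 to 0.00135 for Yap1 at 2 weeks, -0.88 to 0.16 for Ctgf and -2.10 to 0.16 for Ankrd1 in late over early controls, and -0.00952 to 0.0923 for Lats2 in late over early NICD1/Akt livers. Ctgf gained a call in the difference between stages with DESeq2 (adjusted p = 0.0395), with the likelihood ratio test and without library 30 or 35. Over all genes, all 6 controls gave 3326 higher and 3498 lower at 3 weeks, of 13600 tested. Leaving out 1 library gave 4043 to 4357 lower at 3 weeks and 1942 to 2456 lower in late over early controls. It gave 1203 to 3307 higher for the difference between stages (2078 with all). For late over early NICD1/Akt livers it gave 668 to 3125 higher (1530 with all). Both were highest without library 35, of 13948 genes tested, the fits in which 7 members were higher. In the difference 3 members were higher without library 32, with 1423 of 14069 genes, or without control library 11, with 1460 of 14084. The causes were not tested. No paired analysis was possible because the groups share no replicate numbers. Ankrd1 in controls rests on 11 reads at 3 weeks.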

Other observations

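Immediate early genes, some of which are also described as YAP targets, moved against most members in the comparison at 3 weeks. Of 16, 2 rose and 11 fell at 3 weeks in NICD1/Akt livers, against 38.9% and 33.1% of all genes. In controls 13 rose in late over early libraries, against 17.4% of all genes. In NICD1/Akt livers, late over early, 6 rose and 0 fell, against 11.1% and 17.4% of all genes. That was the direction of the 5 members called there. Egr1 had 68.7, 87.9 and 56.5 CPM in late NICD1/Akt livers, against 1104, 1225 and 1018 CPM in controls (log2 fold change -3.85, SE 0.19, adjusted p = 1.13e-06 from edgeR), and 70.3 to 116 CPM in controls at 2 weeks. Zfp36 (-2.85, SE 0.17), Junb (-1.87, SE 0.16) and Ier2 (-0.91, SE 0.10) were also lower, and Ier3 (2.88, SE 0.19) and Jun (1.10, SE 0.15) higher. Against all 6 controls 4 of the 16 genes were lower, a share near that over all genes (3498 of 13600 tested). With TMM factors the late controls were the group that stood apart for Egr1, as for Yap1.

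Over the 12 libraries and 10361 genes whose mean reached 5 CPM, log CPM of Yap1 was most alike that of Xbp1, a transcription factor of the unfolded protein response (Pearson r = 0.993, n = 12), Edem3 (0.991), which acts in degradation of misfolded proteins, and Larp4b (0.990), an RNA-binding protein. Cyr61 was most alike Fbln2 (0.977), a matrix protein, Lrp12 (0.972) and Lama5 (0.969), a laminin chain. These values describe the pattern over 4 groups and say nothing of shared control.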
